A study of Mus musculus with 2 samples.

Results

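Osteopontin (Spp1) and 7 other genes of secreted matrix-associated proteins, their receptors and the plasminogen activator system were followed across the cells of mouse mesothelioma tumours. The genes were Spp1, Fn1, Tgfbi, Thbs1, Sparc, Cd44, Plaur and Plau. They were found by symbol, each on 1 row, and make up 8 of the 31053 features of the deposited matrices. They were selected on UMI levels of these same libraries seen in earlier work, so their levels and differences are a description and none was tested. The cells came from tumours of mice bearing AB1-HA, a mouse mesothelioma line, and were sorted for CD45, the surface phosphatase of leukocytes encoded by Ptprc. The first group received a control antibody and the other an antibody against VEGF, the vascular growth factor encoded by Vegfa. Tumours of both groups were digested with collagenase and DNase, and dead cells were excluded with propidium iodide. The strain and age of the mice, their number behind each library, and the dose and timing of the antibodies are not given in the sources used here. Each group was represented by 1 library, so no value has a replicate check.

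Matricellular proteins are secreted into the matrix and act mainly by binding cell receptors and growth factors rather than by building fibres. Osteopontin binds integrins and CD44 and is made by bone cells, macrophages and many tumour cells, and SPP1-high macrophages are a recurrent population of solid tumours. Urokinase (Plau), bound to its receptor (Plaur), turns plasminogen into plasmin at the cell surface, which cleaves matrix proteins such as fibronectin (Fn1).

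In the GENCODE vM21 annotation of GRCm38 (mm10) all 8 genes are protein coding. Spp1 lies at chr5:104435118-104441050 and Plaur at chr7:24462484-24475968, both on the forward strand. Also on the forward strand are Thbs1 (chr2:118111876-118127133), Tgfbi (chr13:56609523-56639562) and Plau (chr14:20836660-20843385). Fn1 (chr1:71585520-71653200), Cd44 (chr2:102811141-102901665) and Sparc (chr11:55394500-55423183) lie on the reverse strand. Thbs1 and Fn1 each overlap a gene on the opposite strand that is also among the features (Gm29233 and Apol7d). The sources used here do not state whether counting used strand, and the part of reads of those genes in the members' counts was not examined. Spp1 overlaps Gm42793 on the same strand, a gene that is not among the features.

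RefSeq promoter windows of GRCm38.p6, each of 300 bases with 250 before and 50 from the start site on, were found for 5 of the 8 genes. Fn1, Thbs1 and Plau had no entry. The windows of Spp1 and Plaur are shown because their RNA was at least 1.5-fold higher in macrophage-like cells of the anti-VEGF library, that of Cd44 because its window held the hypoxia response core, and that of Tgfbi because its RNA ran the other way. They are the forward-strand windows chr5:104434861-104435160 (Spp1), chr7:24462233-24462532 (Plaur) and chr13:56609336-56609635 (Tgfbi) and the reverse-strand window chr2:102901616-102901915 (Cd44), each 5′ to 3′. Capitals mark matches on either strand to the AP-1 motif TGANTCA, the hypoxia response core ACGTG or the RUNX motif TGTGGT (in reverse ACCACA).
Spp1: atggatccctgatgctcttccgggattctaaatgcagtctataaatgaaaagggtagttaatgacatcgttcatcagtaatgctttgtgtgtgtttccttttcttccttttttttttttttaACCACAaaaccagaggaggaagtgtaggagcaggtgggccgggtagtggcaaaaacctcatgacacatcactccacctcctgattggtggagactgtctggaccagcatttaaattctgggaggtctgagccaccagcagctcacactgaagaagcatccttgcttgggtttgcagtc
Plaur: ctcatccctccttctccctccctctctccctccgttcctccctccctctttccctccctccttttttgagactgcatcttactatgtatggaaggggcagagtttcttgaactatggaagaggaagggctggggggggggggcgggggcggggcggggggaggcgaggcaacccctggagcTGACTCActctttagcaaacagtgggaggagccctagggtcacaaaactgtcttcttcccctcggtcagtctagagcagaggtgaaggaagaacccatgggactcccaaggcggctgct
Cd44: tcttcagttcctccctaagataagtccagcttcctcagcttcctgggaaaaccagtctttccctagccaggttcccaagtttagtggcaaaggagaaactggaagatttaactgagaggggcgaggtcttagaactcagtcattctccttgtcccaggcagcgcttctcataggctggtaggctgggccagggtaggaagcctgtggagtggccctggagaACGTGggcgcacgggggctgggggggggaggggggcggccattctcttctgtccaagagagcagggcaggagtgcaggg
Tgfbi: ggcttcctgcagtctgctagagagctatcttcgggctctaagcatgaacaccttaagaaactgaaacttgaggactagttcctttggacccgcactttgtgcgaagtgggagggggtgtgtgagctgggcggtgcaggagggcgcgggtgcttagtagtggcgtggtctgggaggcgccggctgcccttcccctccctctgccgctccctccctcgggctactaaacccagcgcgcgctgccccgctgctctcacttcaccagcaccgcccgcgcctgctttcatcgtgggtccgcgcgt

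The Spp1 window held a RUNX match, the Plaur window an AP-1 match and the Cd44 window a hypoxia response core, while the Tgfbi window held none of the 3. A second Spp1 window, for a start site 1081 bases downstream, held none, and the Sparc window held a RUNX match. Of 32851 mouse promoter windows of the same length, 7.81% held the AP-1 motif, 19.6% the hypoxia response core and 16.8% the RUNX motif. The matches describe letters in these windows.

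Transcripts were counted as UMIs (unique molecular identifiers, 1 per captured molecule), with 233687412 UMIs over 11687 barcodes of the control library and 213948867 UMIs over 8825 barcodes of the anti-VEGF library. The filter kept 10805 and 8159 cells, and 35 barcode sequences occurred in both libraries. Cells were assigned to classes by summed marker UMIs, and Fcgr1 was found in 66.7% of macrophage-like cells of the control library and 72.3% of those of the anti-VEGF library, and Mmp9 in 97.4% and 100% of osteoclast-like cells. A Ptprc UMI was found in 74.4% and 87.7% of macrophage-like and in 96.1% and 94.8% of monocyte-like cells. In control and anti-VEGF order, macrophage-like cells numbered 5941 and 4000, osteoclast-like 1208 and 711, monocyte-like 333 and 479, neutrophil-like 71 and 309, and T- and NK-cell-like 188 and 87. The class cuts lie on a continuum, with 446 control and 360 anti-VEGF cells up to 1.25 times above the macrophage cut and 487 and 375 cells from 0.8 times the cut up to it. Collagen-expressing cells were divided into 443 and 552 without a Ptprc UMI and 85 and 98 with one. The cells without Ptprc were sorted for CD45 although they held no RNA for it by construction, and 71.8% of them in the control library and 79.2% in the anti-VEGF library held Msln, a mesothelial and mesothelioma gene. Cells past several cuts (48 and 105) were left out as possible doublets, and 2400 and 1783 cells passed none. Levels are UMIs of a gene per 1000000 UMIs of the class (CPM), with exact Poisson intervals. All intervals are at 95% and cover counting error only.

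Spp1, which encodes osteopontin, was highest in collagen-expressing cells and was the member with the most UMIs in either library. It took 3398 CPM of the control library, the 36th highest feature, and 6420.5 CPM of the anti-VEGF library, the 13th highest. In collagen-expressing cells without Ptprc it reached 11083 CPM in the control library and 11761 CPM in the anti-VEGF library, with a UMI in 99.1% and 99.3% of cells. The cells of this class with Ptprc followed at 8553 and 10405 CPM in control and anti-VEGF. Macrophage-like cells held 3596 CPM (3585 to 3607) and 7274 CPM (7258 to 7291), and monocyte-like cells 3761 and 3466 CPM. Monocyte-like cells therefore stood just above macrophage-like cells in the control library and below them in the anti-VEGF library. Osteoclast-like cells were lowest at 550.3 and 952 CPM, although osteoclasts are a textbook source of osteopontin. No neighbouring Spp1 levels in the order of the 9 classes had overlapping intervals in either library.

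Macrophage-like cells, the most numerous class, supplied most of the Spp1 RNA: 56.0% of the control library's Spp1 UMIs and 56.3% of the anti-VEGF library's, against 23.3% and 19.9% from collagen-expressing cells without Ptprc. Within macrophage-like cells Spp1 was unevenly spread. The median cell held 15.2 Spp1 UMIs per 10000 in the control library and 32 in the anti-VEGF library. The 10th percentile of these cells lay at 1.15 and 3.31, and the 90th at 89.6 and 181. The 10% of cells with the most Spp1 UMIs held 61.8% and 53.4% of the class's Spp1 UMIs, compared with 36.2% and 36.3% in collagen-expressing cells without Ptprc. Collagen-expressing cells were hence more even for Spp1, with medians of 91.0 and 86.8 per 10000.

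**Figure D1:**
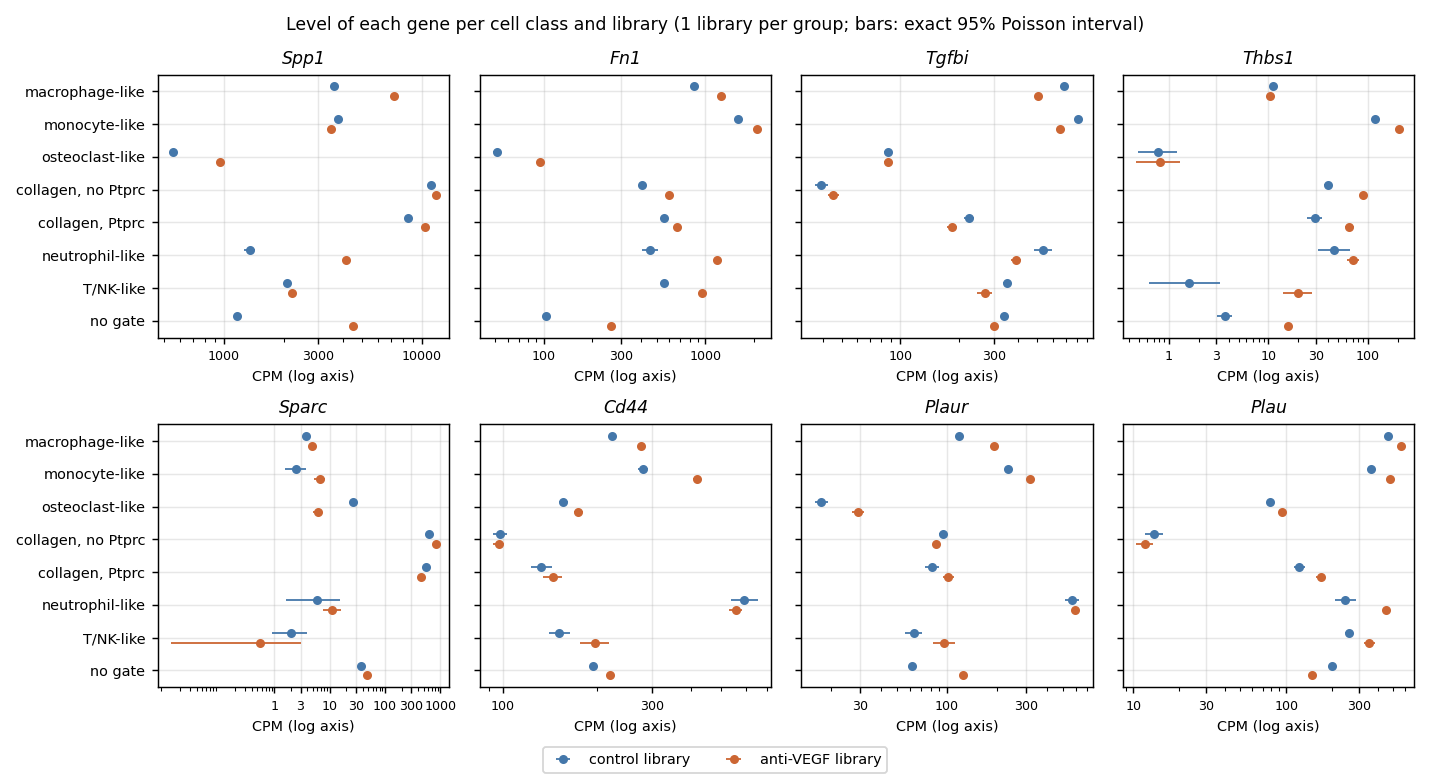
Level of each of the 8 genes (CPM on a log axis, 1 panel per gene) in 8 cell classes, with 1 point per library and exact 95% Poisson intervals. Spp1 and Sparc are highest in collagen-expressing cells, Fn1 and Tgfbi in monocyte-like cells, and Cd44 and Plaur in neutrophil-like cells, in both libraries.

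Fibronectin (Fn1), a matrix glycoprotein bound by integrins, was highest in monocyte-like cells. Its level there was 1588 CPM in the control library and 2088 CPM in the anti-VEGF library, and macrophage-like cells followed with 856 and 1259 CPM. Collagen-expressing cells without Ptprc held less, 409 and 597 CPM, and osteoclast-like cells least, 51.2 and 94.5 CPM. Macrophage-like cells supplied 74.9% and 68.2% of all Fn1 UMIs, so that in these sorted cells the gene was mainly a myeloid one. Tgfbi, a TGF-beta-induced adhesion protein of the matrix, had the same leading classes, with 803 and 652 CPM in monocyte-like and 684 and 504 CPM in macrophage-like cells. It was low in collagen-expressing cells without Ptprc, at 39.5 and 45.5 CPM, and at 86.0 and 86.1 CPM in osteoclast-like cells. Macrophage-like cells held 74.5% and 68.2% of its UMIs.

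Thrombospondin-1 (Thbs1), which activates latent TGF-beta and binds CD36 and CD47, was a gene of few cells. Monocyte-like cells held 117 CPM in the control library and 207 CPM in the anti-VEGF library, with a UMI in 37.8% and 44.9% of cells. Collagen-expressing cells without Ptprc held 39.4 and 89.3 CPM (32.1% and 61.2% of cells), and macrophage-like cells 11.2 and 10.4 CPM (6.35% and 7.35% of cells). Osteoclast-like cells were near 0, at 0.784 and 0.808 CPM. The source of Thbs1 UMIs differed between the libraries: macrophage-like cells supplied 38.6% in the control library and 15.9% in the anti-VEGF library, and collagen-expressing cells without Ptprc 18.4% and 29.8%.

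Sparc encodes a collagen-binding protein made by mesenchymal cells, and it was close to a marker of the collagen-expressing cells. It was found in 90.1% and 94.6% of those without Ptprc, at 629.6 CPM in the control library and 822 CPM in the anti-VEGF library, and at 552 and 444 CPM in those with Ptprc. Macrophage-like cells held 3.70 and 4.77 CPM and monocyte-like cells 2.51 and 6.66 CPM. Osteoclast-like cells read 26.1 and 6.08 CPM, but 1 cell held 657 of the class's 699 Sparc UMIs in the control library and 1 cell 80 of 128 in the anti-VEGF library. Without those cells the class was at 1.57 and 2.29 CPM.

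Cd44, the receptor for hyaluronan and osteopontin, was detected in all classes and varied least between them. Its highest level was in neutrophil-like cells, 593 CPM in the control library and 557 CPM in the anti-VEGF library, and its lowest in collagen-expressing cells without Ptprc, 98.0 and 97.0 CPM. Monocyte-like cells held 281 and 417 CPM and macrophage-like cells 223 and 277 CPM. Plaur, the urokinase receptor, was also highest in neutrophil-like cells, at 569 and 595 CPM, followed by monocyte-like cells at 234 and 316 CPM. Macrophage-like cells held 119 and 192 CPM of Plaur, and osteoclast-like cells only 17.6 and 29.2 CPM. After thinning to 5000 UMIs per cell, which left only 16 and 70 neutrophil-like cells, monocyte-like cells were instead the highest class for Cd44 in both libraries and for Plaur in the control library. The ligand of Plaur, the protease urokinase (Plau), was instead highest in macrophage-like cells, at 462 CPM in the control library and 560.1 CPM in the anti-VEGF library. Those cells supplied 77.4% and 77.5% of all Plau UMIs, and collagen-expressing cells without Ptprc were lowest at 13.6 and 11.8 CPM.

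**Figure D2:**
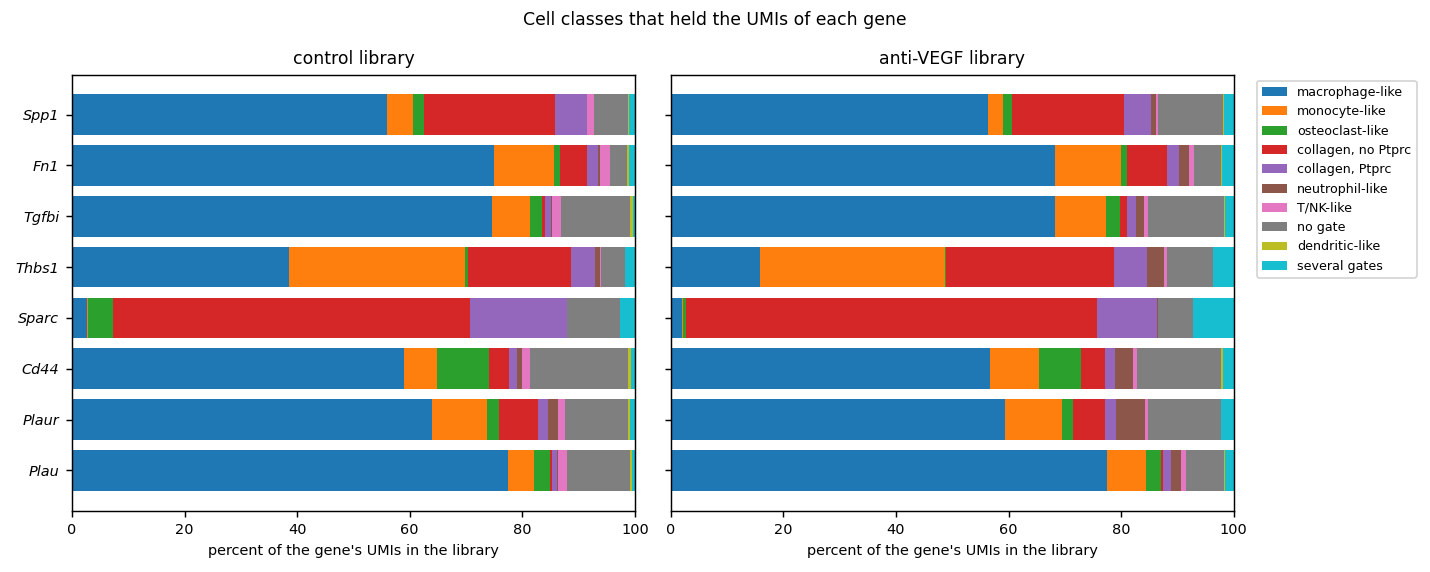
Percent of each gene's UMIs in a library that came from each cell class, 1 bar per gene and library. Macrophage-like cells hold 56.0% and 56.3% of Spp1 and over that share of Fn1, Tgfbi, Cd44, Plaur and Plau in both libraries, whereas collagen-expressing cells without Ptprc hold 63.5% and 73.1% of Sparc.

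T- and NK-cell-like and neutrophil-like cells were each a mixture with respect to macrophage RNA, and the members moved with it. Among T- and NK-cell-like cells, 125 of 188 control and 32 of 87 anti-VEGF cells held 4 or more of the 10 macrophage markers. The other 63 and 55 cells had median depths of 7227 and 8282 UMIs, against 28020.0 and 35131 UMIs in the cells with 4 or more. In the cells with at most 3 markers Spp1 was at 190.2 and 319 CPM, Fn1 at 18.8 and 23.4 CPM, and Tgfbi at 1.88 and 7.21 CPM. In the cells with 4 or more, Spp1 was at 2353 and 3025 CPM, Fn1 at 631 and 1374 CPM, and Tgfbi at 398 and 385 CPM. Cd44, which lymphocytes express, differed less, at 113 and 124 CPM with at most 3 markers. Spp1 had a UMI in 58.7% and 63.6% of the cells with at most 3 macrophage markers. Free RNA and doublets were not separated, and their part in these values was not tested. Thbs1 had a UMI in 0 of these 63 and 0 of these 55 cells.

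In neutrophil-like cells the same division set Plaur, Cd44 and Thbs1 apart from Fn1. With at most 3 macrophage markers (42 control and 222 anti-VEGF cells, median depths 2388.5 and 2151.5 UMIs), Plaur was at 2267 and 1775 CPM and was found in 81.0% and 75.7% of cells. Cd44 was at 2036 and 1431 CPM and Thbs1 at 252 and 262 CPM in these cells. With 4 or more markers (29 and 87 cells, median depths 14802 and 25539 UMIs) Plaur was at 289 and 326 CPM, Cd44 at 355 and 358 CPM, and Thbs1 at 12.1 and 26.8 CPM. Fn1 ran the other way, from 52.5 and 44.2 CPM with few markers to 525 and 1432 CPM with several. Spp1 differed in direction between the libraries. It was at 1722 CPM (control) and 2413 CPM (anti-VEGF) with few markers and at 1284 and 4555 CPM with several. The class sums of neutrophil-like cells are therefore dominated by their deeper, macrophage marker-bearing cells, and the levels of Plaur, Cd44 and Thbs1 given for the class understate those of its marker-poor cells.

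**Figure D3:**
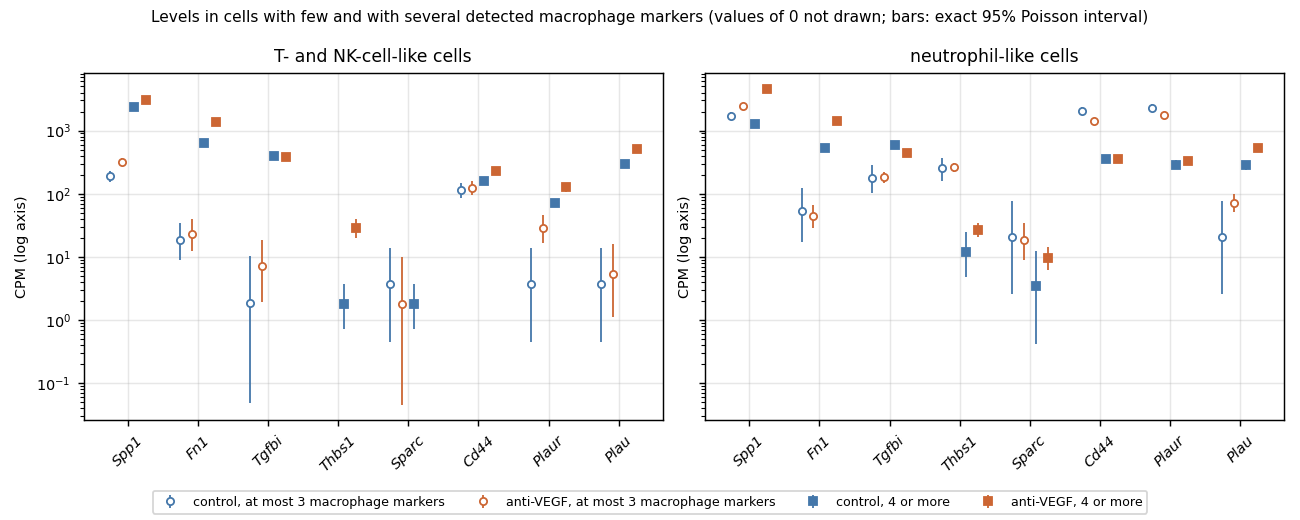
Level of each gene (CPM, log axis) in T- and NK-cell-like and neutrophil-like cells with at most 3 (open circles) or 4 or more (filled squares) of 10 macrophage markers, by library, with exact 95% Poisson intervals. Plaur and Cd44 are highest in neutrophil-like cells with few markers, while Fn1 and Plau are highest in cells with several.

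The comparison between the antibodies asked how these genes differed in tumours of mice with VEGF blocked. In macrophage-like cells, Spp1 and Plaur were at least 1.5-fold higher in the anti-VEGF library and no member was at least 1.5-fold lower. Of the 13627 genes with at least 30 UMIs, 6.08% were past that fold upward and 6.96% downward, and 3.03% and 1.46% were among the 2870 better-measured genes, those at 50 CPM or more in either library. Spp1 was 2.02 times as high (2.02 to 2.03, log2 1.02), going from 3596 to 7274 CPM. Plaur was 1.62 times as high (1.58 to 1.65), from 119 to 192 CPM. Fn1 stood just inside the fold at 1.47 (1.46 to 1.48), and it reached 1.58 where the libraries were scaled by TMM, which moved the median of all genes by 0.10 on the log2 scale. Cd44 had a ratio of 1.24 and Plau of 1.21. Tgfbi was the member with the clearest difference in the other direction, at 0.737 (0.729 to 0.745), from 684 to 504 CPM. The Thbs1 ratio was 0.933, with an interval of 0.860 to 1.01 that includes 1.

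The median log2 ratio of the 8 members in macrophage-like cells was 0.30, beside -0.09 over all genes tested. Spp1 was higher across the range of these cells and not only in the highest, with the 10th percentile, the median and the 90th percentile all higher in the anti-VEGF library as given above. A UMI was found in 93.9% and 98.6% of the macrophage-like cells, and in 89.2% and 94.7% after each cell was thinned to 5000 UMIs. The macrophage-like cells without any UMI of the collagen markers, 4971 and 3277 cells, gave a Spp1 ratio of 2.08. In those cells Thbs1 was at 11.3 and 8.86 CPM (ratio 0.781) and Sparc at 2.65 and 2.20 CPM, with a Sparc ratio of 0.829 (0.679 to 1.01) in place of 1.29 in the whole class. The summed macrophage markers of this class had a median of 169 per 10000 in the control library and 116 in the anti-VEGF library, and their part in the Spp1 difference was not tested. The median depth of macrophage-like cells was 18266 UMIs in the control library and 22442 UMIs in the anti-VEGF library.

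In monocyte-like cells the order was different: Thbs1 and Sparc were the 2 members at least 1.5-fold higher, none was lower by that fold, and of all genes tested 5.95% were higher and 8.12% lower (4.75% and 2.22% of those at 50 CPM or more). Thbs1 went from 117 to 207 CPM, a ratio of 1.77 (1.65 to 1.91), and the Sparc ratio of 2.65 rested on 23 and 71 UMIs. In the 266 and 394 monocyte-like cells without collagen-marker UMIs, Sparc was at 1.40 (16 and 26 UMIs), no longer past the fold, and Thbs1 at 1.76. Cd44 had a ratio of 1.48 (1.41 to 1.56), Plaur of 1.35, Plau of 1.34 and Fn1 of 1.31. Spp1, unlike in macrophage-like cells, was slightly lower in the anti-VEGF library, at 0.922 (0.908 to 0.935), and its median per cell went from 21.2 to 9.87 per 10000. Tgfbi was at 0.812, again under 1. The class's own macrophage marker sum had a median of 126 per 10000 in the control library and 60.8 in the anti-VEGF library, so the cells passing the monocyte cut held less macrophage marker RNA in the second, and the part of this in the Spp1 difference was not tested.

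Osteoclast-like cells showed Spp1, Fn1 and Plaur at least 1.5-fold higher, with 4.03% of all genes tested higher and 3.52% lower by that fold (1.16% and 0.193% of those at 50 CPM or more). The Fn1 ratio was 1.84 (1.72 to 1.98), the Spp1 ratio 1.73 (1.69 to 1.77) and the Plaur ratio 1.66 (1.47 to 1.88), all at levels well under those of macrophage-like cells. Sparc was lower at 0.233, the value set by the 1 control cell described above. The Tgfbi ratio was 1.00 (0.941 to 1.07), Cd44 was at 1.12 and Plau at 1.20.

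Collagen-expressing cells without Ptprc had the highest Spp1 levels and nearly the same level in both libraries, with a ratio of 1.06. Thbs1 was their 1 member past the fold, at 2.27 (2.07 to 2.49), where 4.19% of all genes tested were higher and 4.9% lower (1.61% and 1.21% of those at 50 CPM or more). Fn1 was at 1.46 and Sparc at 1.31, and Cd44 (0.991), Plaur (0.907) and Plau (0.870) were close to or under 1. The Thbs1 difference was found both in the cells with Msln, from 35.8 to 80.8 CPM (318 and 437 cells), and in those without it, from 67.8 to 163 CPM (125 and 115 cells). In contrast, Spp1 was at 1.14 in the cells with Msln and at 0.740 in those without, where the median depth was 4669 UMIs in the control library and 20180.0 in the anti-VEGF library. In the collagen-expressing cells with Ptprc, Thbs1 was again the 1 member past the fold, at 2.23 (1.84 to 2.72), beside 4.3% of all genes higher and 6.67% lower (2.87% and 1.79% of those at 50 CPM or more), and Sparc was at 0.805.

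Among neutrophil-like cells 5 members passed the fold upward and none downward, but so did 10.9% and 12.6% of all genes tested, and 5.94% and 8.92% of those at 50 CPM or more. Those members were Spp1 (3.09), Fn1 (2.57), Sparc (1.90, from 4 and 33 UMIs, interval 0.674 to 7.37), Plau (1.85) and Thbs1 (1.53). In the cells with at most 3 macrophage markers Spp1 was at 1.40 (1.19 to 1.66), Thbs1 at 1.04, Plaur at 0.783 (0.675 to 0.912) and Cd44 at 0.703 (0.599 to 0.827), so the Spp1 ratios of the class and of its marker-poor cells differed by over 1.5 times. Fn1 and Sparc lay on the other side of 1 in the marker-poor cells, at 0.843 (0.315 to 2.83) and 0.878 (0.187 to 8.24), and Plau was at 3.42 (0.887 to 29.3), with intervals that all include 1. In the whole class 3 cells held 445 of its 906 control Spp1 UMIs and 3 cells 5144 of 12177 in the anti-VEGF library, and without them Spp1 was at 849.6 and 2561 CPM. In T- and NK-cell-like cells 3 of 7 members tested were higher, Thbs1, Fn1 and Plaur, beside 7.13% of all genes higher and 6.33% lower (4.51% and 2.02% of those at 50 CPM or more). The Thbs1 value there rested on 7 and 36 UMIs, 26 of them in 1 cell. Without the top cell of each library Plaur was at 1.43 in place of 1.52, and without the top 3 cells Fn1 was at 1.31 in place of 1.72. In the cells with at most 3 macrophage markers Fn1 was at 1.24 (0.504 to 3.17) and Plaur at 7.66 (1.8 to 68.6). In those with 4 or more, Fn1 was at 2.18 (2.05 to 2.32) and Plaur at 1.77 (1.45 to 2.16). Spp1 was at 1.68 (1.31 to 2.16) with at most 3 markers and 1.29 (1.24 to 1.34) with 4 or more, against 1.05 in the class. The share of cells with 4 or more macrophage markers differed between the libraries (125 of 188 and 32 of 87), and its part in these ratios was not tested.

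The cells that passed no cut had a Spp1 level of 1163 CPM in the control library and 4497 CPM in the anti-VEGF library, a ratio of 3.87. Spp1, Fn1, Plaur and Thbs1 passed the fold there, where 13.2% of all genes tested were higher and 7.04% lower (6.87% and 3.07% of those at 50 CPM or more). The ungated cells were divided by 5 check genes of the collagen class, Col4a1, Pcolce, Serpinh1, Krt8 and Msln. Krt8 and Msln were also used as markers of mesothelial or tumour cells, so the division is not by collagen RNA alone. In those with fewer than 2 of the 5 check genes (2247 and 1512 cells, median depths 5104 and 12497 UMIs) Spp1 was at 893 and 4547 CPM. In those with 2 or more (153 and 271 cells) it was at 4413 and 4329 CPM, a ratio of 0.981. The Spp1 difference of the ungated cells thus lay in the cells with fewer than 2 collagen check genes, which also differed in depth, and the part of depth in it was not tested.

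**Figure D4:**
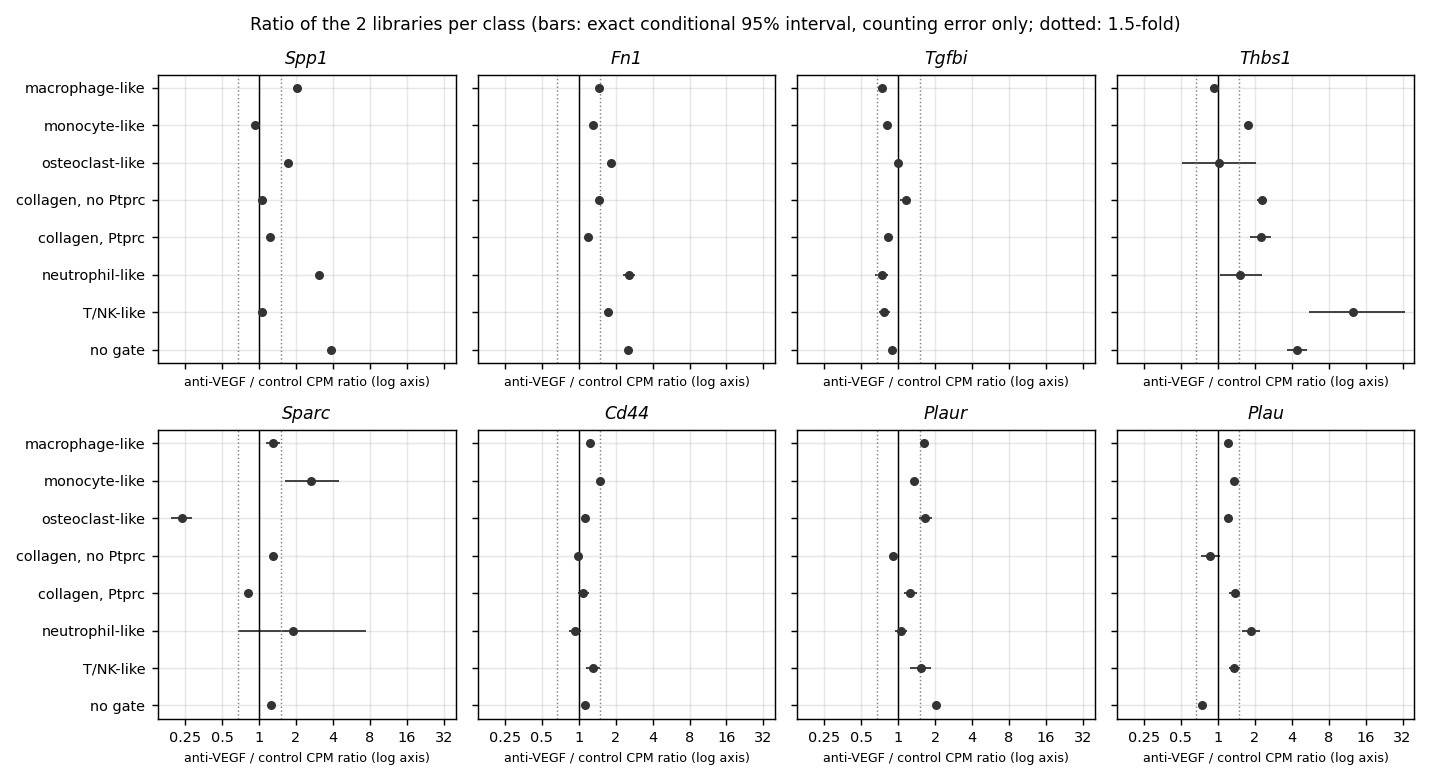
Anti-VEGF over control ratio of each gene (log axis, 1 library per group) in the 8 cell classes, with exact 95% intervals for counting error and lines at the 1.5-fold bounds. Spp1 is at 2.02 in macrophage-like cells and 0.922 in monocyte-like cells, Thbs1 at 0.933 and 1.77, and Tgfbi is under 1 in 6 of the 8 classes.

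Macrophage-like cells were next ordered by the summed UMIs per 10000 of 9 hypoxia-induced genes (Bnip3, Ndrg1, Slc2a1, Adm, Ankrd37, Egln3, P4ha1, Ero1l and Pgk1), with cut points at the quartiles of both libraries pooled. These groups are ranges of a score, and 129 to 536 cells of a library lay within 10% of a cut point. Of the control cells, 35.8% were in the lowest group and 9.96% in the highest, and of the anti-VEGF cells 9.0% and 47.3%. Spp1 was higher in each successive group, at 1633, 3134, 5496 and 7303 CPM in the control library and 2027, 5107, 7025 and 9038 CPM in the anti-VEGF library. The highest group was 4.47 times the lowest in the control library and 4.46 times in the anti-VEGF library. Without Pgk1 in the score the Spp1 levels were 1522, 3109, 4953 and 7488 CPM in the control library and 2288, 5311, 7398.5 and 8744 CPM in the anti-VEGF library.

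Apart from Sparc, which was at only 3.70 and 4.77 CPM in the class, the other members divided into those that went with the score and those that did not. From the lowest to the highest group, Plaur went from 80.5 to 203 CPM in the control library and from 99.3 to 237 CPM in the anti-VEGF library. Fn1 went from 529 to 1309 CPM and from 731 to 1305 CPM, and Plau from 422 to 662 CPM and from 467 to 608 CPM. Thbs1 was 6.17 times as high in the highest as in the lowest group of the control library and 2.93 times in the anti-VEGF library. Tgfbi was lower, from 794 to 462 CPM and from 751 to 366 CPM. Cd44 changed little, at 1.18 and 1.23 times. Each library shows these orders on its own, with the genes and the score measured in the same cells.

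Within the 4 score groups Spp1 was still higher in the anti-VEGF library, with ratios of 1.24, 1.63, 1.28 and 1.24 from the lowest to the highest group. With both libraries given the control's shares of cells in the 4 groups, the Spp1 ratio was 1.38 in place of 2.02, that of Plaur 1.21 in place of 1.62, that of Fn1 1.23 in place of 1.47 and that of Tgfbi 0.946 in place of 0.737. Plau was at 1.10 and Cd44 at 1.17. Sparc, under 10 CPM in both libraries, went to the other side of 1, at 0.889 in place of 1.29. Thbs1 moved away from 1, to 0.619 from 0.933, and in the highest score group it was at 31.2 CPM in the control library and 13.6 CPM in the anti-VEGF library. When the shares of groups by Lyz1, Ch25h and Cd36 were used instead, the Spp1 ratio was 1.73, and without Pgk1 in the hypoxia score it was 1.5. With the other scores described below it was 1.79 (resident-like), 1.85 (cell cycle), 1.97 (MHC class II) and 2.03 (interferon). The resident-like shares gave a Fn1 ratio of 1.66. The lowest groups by the Lyz1 and interferon scores were cells with a score of 0, whose depths differed between the libraries as described below. The part of the mix of cells in the differences between libraries was not tested.

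**Figure D5:**
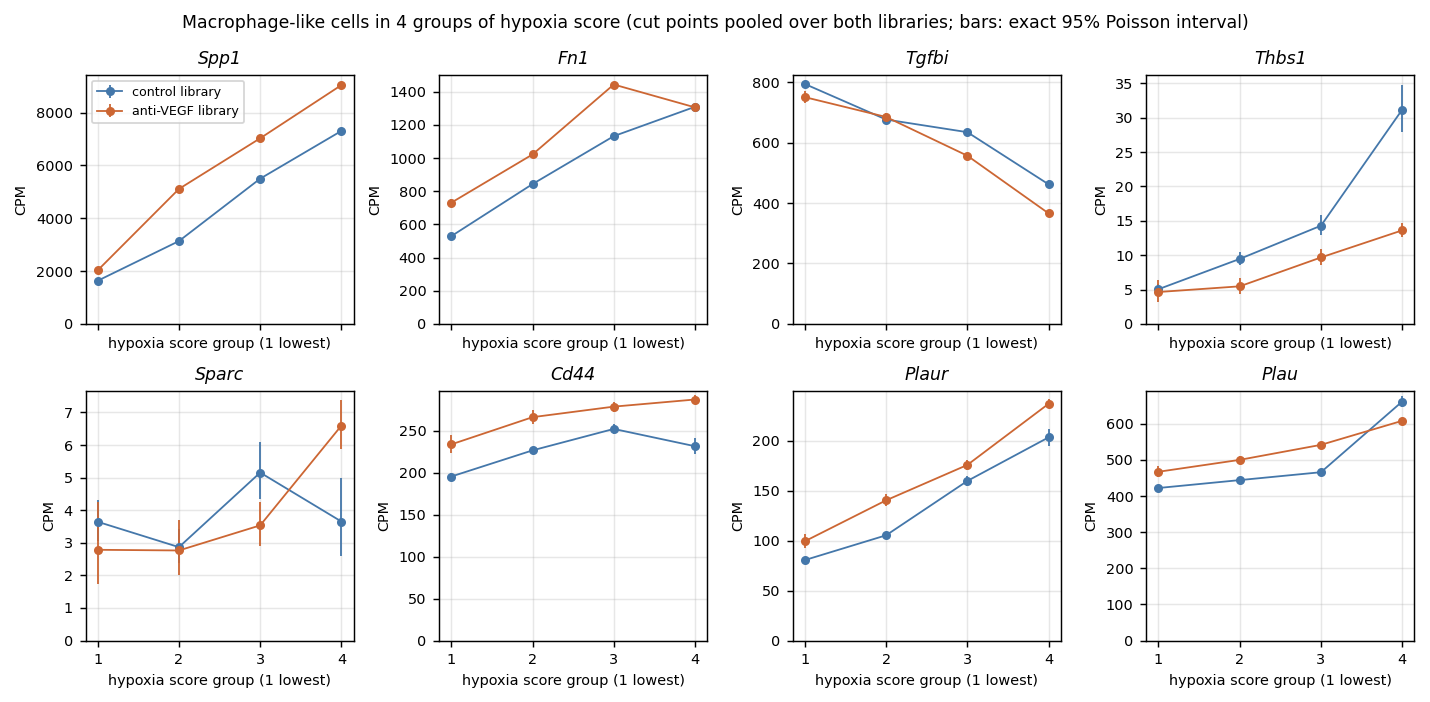
Level of each gene (CPM) in macrophage-like cells divided into 4 groups by the summed UMIs of 9 hypoxia-induced genes, 1 line per library, with exact 95% Poisson intervals. Spp1 goes from 1633 to 7303 CPM in the control library and from 2027 to 9038 CPM in the anti-VEGF library, and Tgfbi from 794 to 462 CPM and from 751 to 366 CPM.

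Other marker scores of macrophage-like cells ordered the members differently. By a resident-like score (Selenop, Stab1, Fcrls, Npl, Mrc1 and Folr2), Fn1 was 3.56 times as high in the highest as in the lowest group of the control library and 3.38 times in the anti-VEGF library, while Tgfbi was at 0.384 and 0.476 and Spp1 at 0.918 and 0.434. By the score of MHC class II genes, which present antigen to CD4 T cells, Thbs1 went from 4.56 to 24.3 CPM in the control library and from 2.33 to 21.9 CPM in the anti-VEGF library, and Tgfbi was 1.73 and 1.5 times as high. Spp1 was lower by that score, at 0.819 and 0.487. Lyz1, Ch25h and Cd36 together gave a Spp1 level 2.79 and 2.57 times as high in the highest group, and Tgfbi 0.512 and 0.568. The lowest group by that score was the cells with a score of 0, 41.8% of macrophage-like cells in the control library and 20.35% in the anti-VEGF library. Its median depth was 5601 and 15807.5 UMIs, against 17899 and 23335.5 UMIs in the highest group, and the part of depth in these values was not tested. By genes of the cell cycle Spp1 was at 0.625 and 0.549 and Tgfbi at 1.32 and 1.69, and by interferon-induced genes Spp1 was at 1.09 and 0.777, which lie on either side of 1. The lowest interferon group was also the cells with a score of 0, at median depths of 2658 UMIs in the control library and 15236 UMIs in the anti-VEGF library. Spp1 and Tgfbi thus pointed in opposite directions for the hypoxia, the MHC class II, the Lyz1 and the cell cycle scores in both libraries, but not for the resident-like score.

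Across 16 points of class and library, the genes whose levels were most alike to a member, by Pearson correlation of log2 CPM over 4602 genes, differed from member to member. The points share 2 libraries and their depth, and the values are a description. For Spp1 the closest were Rhoc (0.978), Rtn4 (0.937), Cdk14 (0.933), Cd81 (0.929) and Plpp2 (0.926), and for Sparc the first was Gchfr (0.977) and the fourth Col4a1, a basement membrane collagen. Plaur was closest to Nlrp3 (0.961), an inflammasome sensor, Plau to Colec12 (0.986), Tgfbi to Ctsc (0.973), Fn1 to Dpysl2 (0.977), Cd44 to Mcl1 (0.971) and Thbs1 to Samd4b (0.939).

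Over single macrophage-like cells the correlations were weak, as sparse counts give, and the lower of the values in the 2 libraries is quoted. Spp1 was most alike to the tetraspanin Cd9 (0.303), followed by Srgn (0.289), Fn1 (0.279), Rhoc (0.273) and Cd14 (0.271), so that Fn1 and Rhoc stood near the top of 8417 genes. Fn1 was closest to Rnase4 (0.360), with Mrc1 (0.347) and Arg1 (0.336) also among its first 5 genes. Tgfbi was closest to Olfm1 and also had Ccr2 (0.339), the monocyte chemokine receptor, among its first 5. Spp1 with Tgfbi gave -0.07 in the control library and -0.10 in the anti-VEGF library.

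The receptors and partners of these proteins were counted in macrophage-like cells from lists of the pathways. Of 11 integrin subunits tested, 2 were at least 1.5-fold higher and 0 lower in the anti-VEGF library, with a median log2 ratio of 0.05, and Itgb2, the leukocyte beta chain, was at 111 and 170.3 CPM. Of 10 other receptors, 2 were higher and 1 lower: the thrombospondin receptor Cd36 was at 41.4 and 107 CPM, the syndecan Sdc3 at 150.1 and 230.6 CPM, and Stab1, a scavenger receptor that takes up Sparc, at 201 and 126 CPM. Of 13 genes of plasminogen activation and its inhibitors, 7 were higher and 2 lower (median 0.42), of which 3 and 2 were under 10 CPM in both libraries, with Anxa2, a surface site for plasminogen activation, at 699 and 1263 CPM and Eno1, a glycolytic enzyme that also binds plasminogen, at 646 and 1149 CPM.

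Of 15 other matricellular and adhesion proteins, 11 were higher and 0 lower, with a median of 0.82, but 9 of the 11 were under 10 CPM in both libraries. Several of these are genes of the collagen-expressing cells: Thbs2, which was at 153 and 259 CPM in those without Ptprc, went from 0.599 to 4.0 CPM in macrophage-like cells, and Fbln2, at 88.7 and 153 CPM there, from 0.405 to 1.74 CPM. In the macrophage-like cells without collagen-marker UMIs, 7 of 14 tested were higher and 1 lower with a median of 0.17, and 5 of the 7 were under 10 CPM. The 2 higher genes above that level, Lgals3 (a galectin) and Ecm1, were at 1464 and 3128 CPM and at 48.4 and 92.2 CPM in the whole class, and at 1477 and 3179 CPM and 48.3 and 92.1 CPM without collagen-marker UMIs. The TGF-beta ligands, receptors and response genes were near the level of all genes, with 2 of 15 higher, both under 10 CPM, 0 lower and a median of -0.01. Hyaluronan and CD44 partners had 1 of 11 higher and 1 lower, the higher being Mif, a ligand of the CD74 and CD44 complex, at 699 and 1107 CPM. These counts stand beside the 6.08% and 6.96% of all genes tested that were past the same fold in macrophage-like cells, or 4.62% and 7.3% in those without collagen-marker UMIs.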

How the data were processed

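Sorted CD45-positive cells of 2 groups, 1 library each, were profiled by droplet sequencing from the 3-prime end (10x Genomics chemistry v3.1), per the labels' protocols. The deposited matrices hold UMI counts without normalisation, which the authors made with Cell Ranger 3.0.2 and mm10 per the submitters' processing notes; per the file headers the software version is 3.1.0. Cells were kept from 300 genes and 500 UMIs up, with no more than 10% of UMIs from mitochondrial genes.

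Cells were assigned to classes where the summed UMIs of class markers per 10000 passed a threshold (neutrophil 20, T and NK 5, mature dendritic 10, other dendritic 3, collagen 5, osteoclast 160, monocyte 10, macrophage 20 with at least 5 markers detected). The thresholds were set after seeing the data, and no doublet caller was run. UMIs were summed per class and library (CPM), and ratios, with a pseudocount of 1 CPM on the log2 scale, were computed for genes with at least 30 UMIs. Intervals are exact Poisson for levels, conditional binomial for ratios and Clopper-Pearson for shares. For shares after thinning, each cell was thinned to 5000 UMIs; 1666 control and 315 anti-VEGF macrophage-like cells were too shallow. With 1 library per group there is no test between groups.

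The members, lists and scores were chosen with earlier results of these data known. Named genes are the 8 members, list genes past 1.5-fold at 50 CPM or more in either library (at most 4 per direction), the 5 genes most alike to each member, and class markers. Promoter sequences are from RefSeq. Class sums of 13572 genes for macrophage-like cells were simulated as Poisson draws. In these, 99% of genes changed 2-fold and 1.87% of unchanged genes passed the fold, and 95.3% of intervals held the simulated fold. The draws held counting error only, as the intervals assume, so they give no rate of false calls between mice or libraries. Alternatives covered the cell filter, the thresholds, overlapping gates, scaling (edgeR 4.0.16 TMM and median-of-ratios), the weight of cells, thinning and the pseudocount. Python packages were numpy 2.4.6, scipy 1.17.1 and pandas 2.3.3.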

Additional observations from a re-analysis of the deposited data

Results flagged for a closer look

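The Sparc ratio of anti-VEGF over control lay on different sides of 1 between classes. It was 2.65 in monocyte-like cells, from 23 and 71 UMIs (1.40 without cells holding collagen-marker UMIs), and 1.9 in neutrophil-like cells, from 4 and 33 UMIs, but 0.233 in osteoclast-like cells, where 657 of 699 control UMIs were in 1 cell. With 1 library per group the difference between the classes was not tested.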

How the results depend on the processing

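The log2 ratio of Spp1 in macrophage-like cells was 1.02 and stayed above 0 under every alternative run: 0.97 with the stricter cell filter and with cells weighted equally, 0.90 with doubled and 1.18 with halved class thresholds, 1.12 with TMM, with median-of-ratios scaling and without the top 1% of cells, and 1.05 after thinning. Chosen after seeing the data, leaving out cells with collagen-marker UMIs gave 1.05, leaving out the top cell of each library 1.02 and the top 3 cells 1.04. Members at least 1.5-fold higher numbered 2 (Spp1 and Plaur), and 3, with Fn1, with halved thresholds, with either other scaling and with equal weights. Members lower by that fold numbered 0, and 1 (Sparc) with equal weights. Sparc changed sign in neutrophil-like cells, at -1.72 when cells took their first matching class and -0.11 with equal weights, and in osteoclast-like cells, at 0.62 with equal weights, 0.42 without the top 1% of cells, 0.35 without the top cell and 0.33 without the top 3. These were the sign changes among ratios past the fold where the alternative held at least 30 UMIs. Not counted for fewer UMIs were Fn1 (0.843) and Sparc (0.878) in neutrophil-like cells with at most 3 macrophage markers, both under 1. Over all 62 other ratios of a member in a class, 52 of 813 alternative values had another sign than the reported one. The cause was not tested. Of all genes in macrophage-like cells, 828 were higher and 948 lower by 1.5-fold (46.6% of calls higher), against 991 and 688 with TMM (59.0%) and 995 and 687 with median-of-ratios (59.2%). The class with the highest level of a member was kept in 58 and changed in 6 of the alternative values: Cd44 and control Plaur went to monocyte-like and anti-VEGF Plau to neutrophil-like cells after thinning, anti-VEGF Cd44 to monocyte-like cells with the stricter filter, and control Sparc to collagen-expressing cells with Ptprc with doubled thresholds. No paired analysis was possible because each group had 1 library. Depth limits Thbs1 and Sparc outside the classes where they were highest.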

Other observations

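The list of other matricellular and adhesion proteins was also counted outside macrophage-like cells. In monocyte-like cells 8 of 9 were at least 1.5-fold higher in the anti-VEGF library and 0 lower, beside 5.95% and 8.12% of all genes tested, and 5 of the 8 were under 10 CPM in both libraries. Without collagen-marker UMIs, 3 of the 5 genes still tested were higher, among them Vcan, a proteoglycan, at 40.2 and 154 CPM. Genes of plasminogen activation were higher in 6 of 10 in all monocyte-like cells and in 5 of 10 without collagen-marker UMIs, with 0 lower in both. Of the higher genes, 2 were under 10 CPM in both libraries in either set of cells. Among all genes tested in monocyte-like cells without collagen-marker UMIs, 5.62% were higher and 7.85% lower. In collagen-expressing cells without Ptprc, 10 of 20 matricellular proteins were higher and 2 lower (median log2 ratio 0.59, all genes -0.07), beside 4.19% and 4.9% of all genes. In those with Ptprc 3 of 18 were higher and 6 lower (median -0.16, all genes -0.05), beside 4.3% and 6.67%. In osteoclast-like cells 2 of 11 were higher and 2 lower (median 0.21, all genes -0.03), beside 4.03% and 3.52%. These genes, Thbs2 and Efemp1 higher and Cyr61 and Fbln5 lower, were all under 10 CPM in both libraries. Higher and lower were 13 and 0 of 16 in cells past no threshold, beside 13.2% and 7.04%, 4 and 0 of 6 in neutrophil-like cells, beside 10.9% and 12.6%, and 4 and 0 of 5 in T- and NK-cell-like cells, beside 7.13% and 6.33%. Of the 13, Tnc, Ctgf, Nov, Fbln5, Gpnmb and Dmp1 were under 10 CPM in both libraries. The ungated cells also included cells with 2 or more collagen-class check genes, whose part was not tested. In neutrophil-like cells Thbs2 rested on 0 and 34 UMIs and Gpnmb on 0 and 51 UMIs. In T- and NK-cell-like cells Vcan rested on 22 and 15 UMIs and Wisp1 on 29 and 30 UMIs.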
